A study of Mus musculus with 18 samples.

Results

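A set of 8 genes of cholesterol synthesis and sterol sensing were followed in mouse colon: Hmgcs1, Idi1, Fdft1, Sqle, Cyp51, Sc5d, Insig1 and Srebf2. They are a named list, chosen with earlier results of these data known. They were found in the table by their NCBI gene identifiers, and make up 8 of the 18349 genes listed there. All 8 passed the filter on low values described under the tests.

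The colons came from male C57BL/6 mice with a wild-type genotype in every group. The Control mice drank water, and their 3 libraries are the only ones with no exposure to dextran sulfate sodium, a detergent-like polymer that injures the colon lining when drunk. The other 15 libraries are from mice that drank 2.5% of it for 7 days and were then gavaged for 5 weeks. The group called DSS received phosphate-buffered saline (3 libraries), the group called WT received Lactobacillus plantarum ZJ316 (4 libraries), the group called KO received ZJ316-KO (4 libraries) and the group called COM received ZJ316-COM (4 libraries). In the names used here WT, KO and COM refer to the bacterium and not to the mouse, and the labels do not say which bacterial gene differs. The protocol gives no gavage for the Control mice, so exposure to dextran sulfate sodium and gavage cannot be told apart in any comparison with them. Nor do the labels tie a library to 1 animal, so a p-value here reflects only how these libraries vary, which may be technical.

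Cholesterol is built in the cytosol and the endoplasmic reticulum from acetyl-CoA through mevalonate, isoprenoid units, squalene and lanosterol. The transcription factor SREBP-2, the product of Srebf2, is held in the endoplasmic reticulum by SCAP and the INSIG proteins while sterols are plentiful. When sterols run low it is carried to the Golgi and cut, and its free part switches on the genes of the pathway, Insig1 and Srebf2 itself among them. In the gut, epithelial cells both make cholesterol and take it up from the lumen, and dividing crypt cells use it for new membranes.

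Promoter sequence is shown for 4 of the genes because members of the set varied together from library to library and differed in the letters next to their start sites. Sequences are from RefSeq, build GRCm38.p6, and cover the 250 bases before the annotated start, 5′ to 3′ on the strand of the gene. Capitals mark matches, on either strand, to TCACNCCAC, a form of the sterol regulatory element that SREBP binds, and to CCAAT, the core motif of NF-Y, which reads ATTGG on the other strand. Hmgcs1 is the only one with both motifs, Cyp51 has its CCAAT close to the start, Insig1 is the gene whose levels departed most from the others in the COM group, and Srebf2 encodes the factor itself. They lie at chr13:119690101-119690350 on the + strand (Hmgcs1), chr5:4104698-4104947 on the - strand (Cyp51), chr5:28071162-28071411 on the + strand (Insig1) and chr15:82147019-82147268 on the + strand (Srebf2).
Hmgcs1: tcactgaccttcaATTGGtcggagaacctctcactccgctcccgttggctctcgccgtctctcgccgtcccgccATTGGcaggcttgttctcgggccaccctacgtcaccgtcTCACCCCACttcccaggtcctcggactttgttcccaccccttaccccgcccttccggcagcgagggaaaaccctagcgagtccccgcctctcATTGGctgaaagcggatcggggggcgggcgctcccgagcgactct
Cyp51: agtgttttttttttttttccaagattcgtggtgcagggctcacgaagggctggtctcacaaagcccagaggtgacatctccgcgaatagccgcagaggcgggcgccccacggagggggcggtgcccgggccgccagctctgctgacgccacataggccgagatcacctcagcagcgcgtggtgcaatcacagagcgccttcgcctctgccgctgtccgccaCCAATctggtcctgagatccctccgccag
Insig1: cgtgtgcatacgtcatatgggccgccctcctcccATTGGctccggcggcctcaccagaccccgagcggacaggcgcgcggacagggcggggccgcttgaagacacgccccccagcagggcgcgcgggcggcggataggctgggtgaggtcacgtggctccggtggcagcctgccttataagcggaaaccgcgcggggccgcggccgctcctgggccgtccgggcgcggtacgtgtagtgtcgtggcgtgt
Srebf2: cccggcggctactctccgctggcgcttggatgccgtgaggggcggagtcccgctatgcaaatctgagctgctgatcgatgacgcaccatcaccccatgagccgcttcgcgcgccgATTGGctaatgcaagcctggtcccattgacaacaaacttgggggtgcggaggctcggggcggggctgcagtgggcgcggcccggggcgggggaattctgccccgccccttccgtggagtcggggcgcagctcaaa

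In Hmgcs1 the match TCACCCCAC lay 137 to 129 bases before the start, with CCAAT matches before and after it and no overlap between them. All 6 members in the promoter table (the 4 above, Sc5d and Idi1) held at least 1 CCAAT, which 33.8% of 32851 promoters of this length hold. TCACNCCAC was in 1 of the 6 members, and 1.05% of all promoters hold it. Among 12 other synthesis enzymes in the table, 11 had a promoter with CCAAT and 0 had TCACNCCAC. CCAAT was also held by 7 of 8 proliferation markers (genes of DNA replication and cell division) and 3 of 3 genes of cholesterol esterification and ester breakdown. Among the other marker lists it ran from 1 of 6 epithelial and 1 of 6 adipocyte markers to 3 of 5 smooth muscle markers and 4 of 6 distal Hox genes. A gene is counted when any of its promoters holds the motif, whereas the 33.8% is a share of single promoters. These matches describe letters in a window, and the absence of a match says only that these letters are not in it.

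Levels are given as FPKM, fragments scaled to transcript length and to the mapped fragments of the library, so they are per length and can be set side by side between genes. Library totals were 517933 to 558590 FPKM, and the number of sequenced reads behind them is unknown. Epithelial markers of the colon were present, with Epcam at 754 to 925 FPKM in every library. Some libraries stood apart in markers of other tissue, given here as the mean log2(FPKM + 1) of a marker list. Pancreatic acinar markers had means of 7.69 to 10.12 in DSS 1, DSS 3 and KO 3 and did not exceed 0.66 elsewhere. Squamous epithelium markers averaged 2.23 to 4.13 in DSS 2, WT 2, WT 4, KO 3 and COM 3. The lowest means of distal Hox genes, which mark position along the gut, were 1.07 in Control 3 and 1.98 in KO 2. Their part in the results below was not tested, and results are given without these libraries where that matters.

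Hmgcs1 makes HMG-CoA, the precursor of mevalonate (chromosome 13, 119690351 to 119708260, GRCm38.p6). It had the highest mean of the 8 genes in every group. Its FPKM was 137, 86.4 and 51.8 in the Control libraries, 75.4, 66.7 and 89.6 in DSS, 103, 135, 105 and 108 in WT, 140.0, 165, 140.4 and 151 in KO, and 109, 135, 132 and 93.4 in COM. The lowest KO library thus stood above all libraries of the other groups, while the Control libraries spread over nearly the whole range.

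Idi1 interconverts the 2 isoprenoid building blocks (chromosome 13, 8885606 to 8892396). It ranged from 31.5 to 76.5 FPKM in Control, 41.5 to 48.1 in DSS, 54.7 to 85.3 in WT, 53.6 to 82.1 in KO and 57.4 to 71.0 in COM. All 12 libraries of the groups given bacteria were above the 3 DSS libraries, and Control 1 lay within the range of the former.

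Fdft1 encodes squalene synthase, the first enzyme committed to sterols (chromosome 14, 63145150 to 63181687). It was at 41.3, 27.4 and 19.6 FPKM in Control, 30.3, 30.3 and 34.7 in DSS, 42.9, 50.6, 43.5 and 35.9 in WT, 48.7, 56.2, 44.7 and 45.2 in KO and 36.9, 44.8, 40.1 and 36.9 in COM. Here too the highest DSS library was below the lowest of each group given bacteria.

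Sqle is squalene epoxidase, a rate-limiting oxygenation after squalene (chromosome 15, 59315092 to 59331193). Its values were 60.8, 37.3 and 24.4 FPKM in Control, 33.7, 29.1 and 35.7 in DSS, 41.7, 57.3, 47.0 and 44.9 in WT, 54.4, 65.3, 54.7 and 55.9 in KO and 49.4, 60.5, 53.5 and 43.7 in COM. DSS did not overlap WT, KO or COM, and KO overlapped both WT and COM.

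Cyp51 removes a methyl group from lanosterol (chromosome 5, 4080674 to 4104697). It read 52.7, 35.3 and 28.8 FPKM in Control, 31.1, 27.4 and 32.9 in DSS, 35.0, 50.2, 38.8 and 32.5 in WT, 46.0, 60.3, 44.8 and 46.7 in KO and 41.6, 50.7, 43.9 and 40.9 in COM. WT 4 fell inside the DSS range, and KO and COM lay wholly above it.

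Sc5d is a desaturase near the end of the pathway (chromosome 9, 42251592 to 42264300). It varied least of the 6 enzymes across the 18 libraries, from 38.2 to 59.8 FPKM, with 38.2 to 42.2 in DSS, 42.1 to 52.3 in WT, 44.5 to 50.7 in KO and 47.7 to 59.8 in COM. Its highest mean was in COM, whereas the other 7 genes had theirs in KO.

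Insig1 encodes the sterol-responsive retention protein for SCAP (chromosome 5, 28071412 to 28078662). Its FPKM was 39.9, 46.5 and 16.5 in Control, 41.3, 34.7 and 50.5 in DSS, 52.0, 60.4, 52.2 and 47.1 in WT, 66.1, 64.8, 51.6 and 53.6 in KO and 37.1, 38.1, 41.0 and 32.7 in COM. The COM libraries were all below the WT and KO libraries, which no enzyme of the set showed against both groups.

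Srebf2 (chromosome 15, 82147269 to 82205379) was the steadiest of the 8. Control libraries were at 59.9, 49.0 and 48.7 FPKM, DSS at 47.8, 52.7 and 49.5, WT at 50.4, 52.3, 51.2 and 52.6, KO at 65.2, 59.0, 59.9 and 58.8, and COM at 55.3, 59.1, 58.8 and 54.7. KO and COM were wholly above both DSS and WT.

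**Figure D1:**
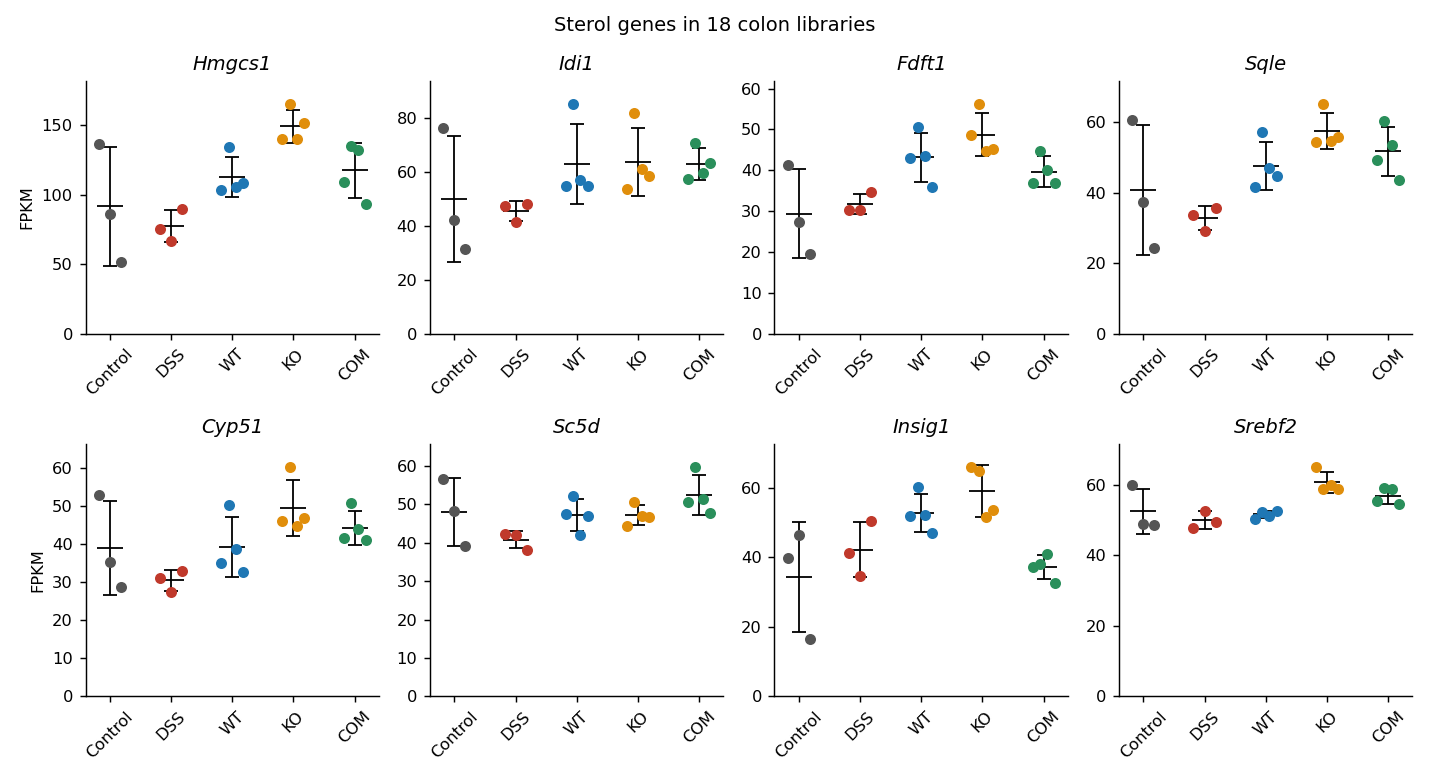
FPKM of the 8 genes in each library (points, in replicate order from left to right), with the group mean and SD (bars; n = 3 for Control and DSS, n = 4 for the others). KO points lie above all DSS points for all 8 genes, and the Control points spread widely for all but Srebf2 and Sc5d.

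Ordered by mean, the groups ran KO, COM, WT, Control and DSS for Hmgcs1, Sqle and Cyp51, and DSS had the lowest mean for 6 of the 8 genes. Fdft1 and Insig1 were lowest in Control. No pair of neighbours in any gene's order differed at an adjusted p under 0.05, the smallest adjusted p between neighbours being 0.218 (Hmgcs1, WT against Control).

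The spread was uneven between groups. The median SD of the 8 genes on the log2(FPKM + 1) scale was 0.58 in Control, and 0.12 in DSS, 0.18 in WT, 0.14 in KO and 0.13 in COM. Over all 13263 tested genes the same medians were 0.18, 0.10, 0.10, 0.13 and 0.11. Control 3 had the lowest value of all 18 libraries for 5 of the 8 genes and was among the lowest 3 for all of them, and Control 1 was among the highest 3 for 5. Control 3 is the library with the lowest distal Hox mean, and its adipocyte markers had a mean of 5.11 (1.98 is the lowest in that group). The part of these in its sterol gene levels was not tested.

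Differences were tested on log2(FPKM + 1) in 1 limma model of all 18 libraries, over the 13263 genes that reached 1 FPKM in at least 3 libraries. Calls were made at a p under 0.05 after Benjamini-Hochberg adjustment over all of these genes. Fold changes below are on this scale, with the standard error of the model.

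Against DSS, the comparison that asks what the bacteria added after injury, the KO group showed the widest separation. Every KO library was above every DSS library for 8 of 8 genes, against 7.68% of all tested genes. The list was chosen with earlier results of these data known. Its genes also varied together (median Pearson correlation 0.75 over 18 libraries), so they are not 8 separate observations. The mean of Hmgcs1 was 149 ± 11.9 FPKM in KO (SD, n = 4) and 77.2 ± 11.5 in DSS (SD, n = 3), a log2 fold change of 0.95 ± 0.23 (SE; 95% confidence interval 0.46 to 1.43). It was 0.79 ± 0.21 for Sqle, 0.67 ± 0.18 for Cyp51, 0.60 ± 0.18 for Fdft1 and 0.28 ± 0.07 for Srebf2. Insig1 (0.48), Idi1 (0.46) and Sc5d (0.20) had intervals that include 0. The median of the 8 was 0.54, beside -0.03 for all tested genes.

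None of the 8 passed the limma test in this comparison: the adjusted p was 0.0927 for Hmgcs1, 0.0974 for Srebf2, 0.106 for Cyp51, 0.109 for Sqle and 0.134 for Fdft1. These 5 had an unadjusted p under 0.05, as did 16.3% of all tested genes, of which 22 (0.166%) were called. In a fit without the Control group, chosen after seeing the data, the same 5 genes were called higher in KO, with adjusted p of 0.0118 (Hmgcs1) to 0.0274 (Cyp51), where 1.43% of all tested genes were called higher. With only the KO and DSS libraries in the model, Hmgcs1 and Sqle were called (adjusted p = 0.0495 for each, beside 0.0528% of all tested genes called higher). Leaving out libraries cannot undo the separation of all 8 genes, so the fits without them are given. Without the libraries with acinar markers, 1 DSS and 3 KO libraries remained, and the 8 genes had 0.16 (Sc5d) to 1.17 (Hmgcs1) with no call (adjusted p = 0.403 to 0.734). The lone DSS library is there assumed to vary like the other groups. Without those with squamous markers, 2 DSS and 3 KO libraries remained, with 0.23 (Sc5d) to 0.88 (Hmgcs1) and no call (adjusted p = 0.402 to 0.754). Without the pair with low Hox genes, 3 DSS and 3 KO libraries remained, with 0.17 (Sc5d) to 0.90 (Hmgcs1) and no call (adjusted p = 0.0516 to 0.407). In these 3 sets of libraries 23.6%, 15.1% and 10.1% of all tested genes were above in every KO library.

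Cell type markers also differed between these libraries. Epithelial markers had a positive log2 fold change for 7 of 8 genes (median 0.26; limma called 0, and 5 had an unadjusted p under 0.05; list mean 9.16 to 9.46 in KO and 9.01 to 9.03 in DSS). Macrophage markers had a negative one for 7 of 7 tested genes (median -0.71; limma called 0, and all 7 had an unadjusted p under 0.05; list mean 3.13 to 3.93 in KO and 3.96 to 4.39 in DSS). Of all tested genes 0.166% were called and 16.3% had an unadjusted p under 0.05. KO 2 held both the lowest macrophage mean (3.13) and the highest epithelial mean (9.46). Proliferation markers overlapped, at 4.45 to 4.72 in KO and 4.45 to 4.63 in DSS. In whole colon, fewer cells of a type and less RNA per cell cannot be told apart, and the part of these markers in the sterol gene values was not tested.

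COM stood above DSS for 7 of 8 genes in every library, where 6.67% of all tested genes did. Sqle had 0.64 ± 0.21, Hmgcs1 0.59 ± 0.23, Cyp51 0.52 ± 0.18, Sc5d 0.35 ± 0.11 and Srebf2 0.19 ± 0.07, each with an unadjusted p under 0.05. Insig1, the exception, had -0.16 ± 0.24. None was called by limma (0.0151% of all tested genes were), and Sqle was called in the fit without the Control group (adjusted p = 0.0366, beside 0.279% of all tested genes called higher). Macrophage markers had a negative value for 7 of 7 tested genes (list mean 3.58 to 3.97 in COM) and epithelial markers a positive one for 8 of 8 (9.18 to 9.21), and their part was not tested.

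WT stood above DSS in every library for 4 of 8 genes, Hmgcs1, Sqle, Fdft1 and Idi1, and 4.48% of all tested genes did so. Their log2 fold changes were 0.54 ± 0.23, 0.52 ± 0.21, 0.43 ± 0.18 and 0.43 ± 0.23, and Srebf2 was nearest to 0 at 0.05 ± 0.07. limma called 0 of 13263 genes here (0.0%), 633 (4.77%) had an unadjusted p under 0.05, and 3 of the 8 were among those (Hmgcs1, Sqle and Fdft1). The 3 comparisons share the same 3 DSS libraries, so a low value in those libraries enters all of them.

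**Figure D2:**
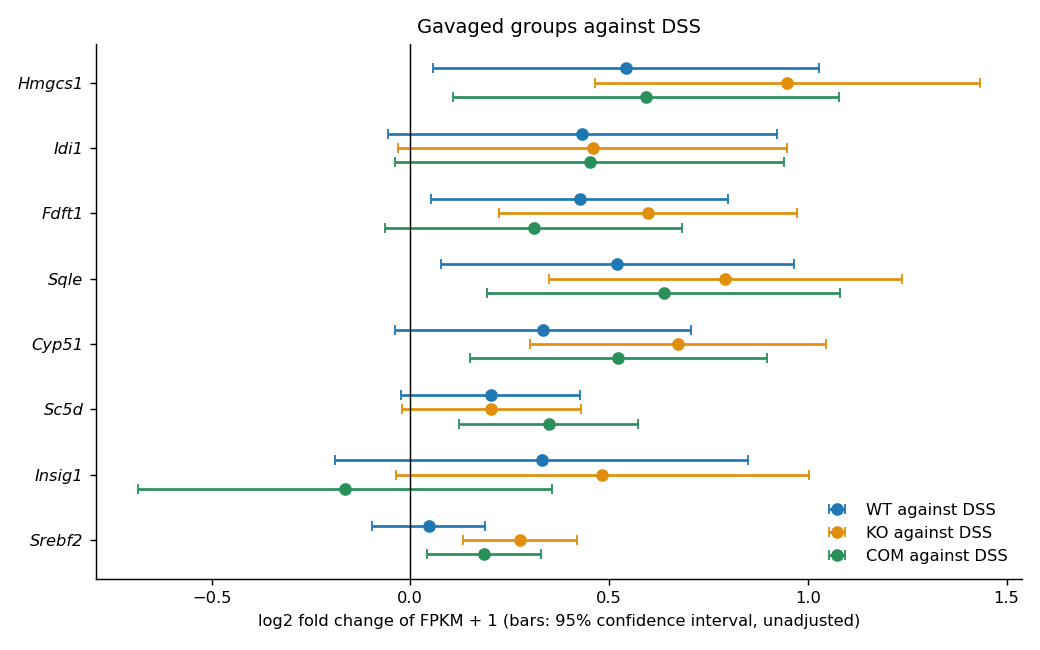
Log2 fold change of FPKM + 1 for the 8 genes in WT, KO and COM against the same 3 DSS libraries, with unadjusted 95% confidence intervals from the limma model. The KO point is the highest of the 3 for each gene but Sc5d, and the COM point of Insig1 is the only one below 0.

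Against Control, 2 genes were called higher in both WT and KO. In WT, Fdft1 was 0.59 ± 0.18 higher (adjusted p = 0.0254) and Insig1 0.73 ± 0.24 higher (adjusted p = 0.0420), where 14.7% of all tested genes were called higher. In KO, Fdft1 was 0.77 ± 0.18 higher (adjusted p = 0.0240) and Insig1 0.88 ± 0.24 higher (adjusted p = 0.0483), where 3.69% were. Hmgcs1 in KO had 0.80 ± 0.23 (adjusted p = 0.0544). In either direction 23.1% and 5.14% of all tested genes were called, so that the 2 of 8 in WT were close to the share of all tested genes. Every WT library was above every Control library for 1 of the 8, Insig1 (17.1% of all tested genes), and every KO library for 3, Hmgcs1, Fdft1 and Insig1 (8.07%). These calls rest on the Control libraries. Without Control 3 neither comparison had a call among the 8 (8.65% and 3.01% of all tested genes were called higher), and without Control 1 there were 5 in WT and 7 in KO (21.9% and 8.05%). Without the libraries with squamous markers, or without the pair with low Hox genes, both counts were also 0. The call for Fdft1 was further lost without Control 2, WT 2 or WT 3 in WT and without Control 2 or KO 1 in KO, and that for Insig1 was lost whichever library of the WT group (in WT) or of the KO group (in KO) was left out. With 1 library left out, Fdft1 ranged from 0.34 to 0.86 in WT and 0.52 to 1.03 in KO, and Insig1 from 0.29 to 1.01 and 0.44 to 1.16.

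COM against Control had positive values for all 8 genes, from 0.12 for Srebf2 to 0.48 ± 0.18 for Fdft1, and 0 calls by limma (7.6% of all tested genes were called). An unadjusted p under 0.05 was seen for 1 of the 8, Fdft1, beside 24.5% of all tested genes. Without Control 1, 5 of the 8 were called higher (11.5% of all tested genes). DSS against Control had 6 negative and 2 positive values, from -0.30 ± 0.19 for Cyp51 to 0.40 ± 0.26 for Insig1. None of the 8 was called or had an unadjusted p under 0.05, in a comparison where limma called 16.9% of all tested genes and 32.9% had an unadjusted p under 0.05. Without Control 1, Fdft1 was called higher (0.44; 18.2% of all tested genes were), and without Control 3, Sc5d was called lower (-0.35; 3.71%). The median of the 8 was -0.11, beside 0.05 for all tested genes. These 4 comparisons share the 3 Control libraries. Smooth muscle markers were called lower than in Control for 4 of 8 genes in DSS, 6 in WT, 0 in KO and 3 in COM, beside 5.31%, 8.35%, 1.46% and 2.34% of all tested genes called lower. Their part in the sterol gene values was not tested.

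Between the bacterial groups, Srebf2 and Hmgcs1 separated KO from WT, and Insig1 separated COM from both. Every KO library was above every WT library for these 2 genes, and 7.83% of all tested genes did the same. Srebf2 averaged 60.7 ± 3.01 FPKM in KO and 51.6 ± 0.993 in WT (SD, n = 4 each), a log2 fold change of 0.23 ± 0.06 with an adjusted p of 0.0789, and Hmgcs1 had 0.41 ± 0.21. limma called 0 of the 8 and 0.829% of all tested genes, and only Srebf2 of the 8 had an unadjusted p under 0.05, beside 20.1% of all tested genes. With only the KO and WT libraries both genes were called (adjusted p = 0.0458 for Srebf2 and 0.0496 for Hmgcs1, beside 1.82% of all tested genes called higher), and without the Control group Srebf2 was (adjusted p = 0.0161, beside 3.37% of all tested genes called higher). In the same comparison macrophage markers had a negative value for 7 of 7 tested genes (list mean 4.03 to 4.36 in WT) and epithelial markers a positive one for 6 of 8 (9.08 to 9.27 in WT). All 8 smooth muscle markers had an unadjusted p under 0.05 in limma, with a list mean of 7.69 to 7.99 in KO and 7.38 to 7.73 in WT. The part of these markers was not tested. Sc5d and Idi1 had differences near 0, with 95% intervals of -0.21 to 0.21 and -0.43 to 0.48.

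In COM against KO, Insig1 averaged 37.2 ± 3.46 FPKM beside 59.0 ± 7.47 (SD, n = 4 each). Its log2 fold change was -0.65 ± 0.23 (95% interval -1.13 to -0.17, unadjusted p = 0.0116 and adjusted p = 0.321 in the limma model). Insig1 and Hmgcs1 (-0.36 ± 0.21) were below KO in every COM library, as were 3.34% of all tested genes. In COM against WT, Insig1 was below in every library (-0.50 ± 0.23; 5.69% of all tested genes) and Srebf2 above in every library (0.14 ± 0.06; 4.69%). limma called none of the 8 in either comparison. The unadjusted p was under 0.05 for Insig1 against KO and for Insig1 and Srebf2 against WT, beside 10.8% and 11.2% of all tested genes. Of all tested, 4 genes and 1 gene were called (0.0302% and 0.00754%). For Hmgcs1 in COM against WT the difference was 0.05, with a 95% interval of -0.40 to 0.50.

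The other enzymes of the pathway were read from a list of 15, which includes the steps between the 6 enzymes above. In KO against DSS, 14 of 15 had a positive log2 fold change, 12 were above DSS in every KO library (7.68% of all tested genes were), and the median was 0.48. limma called none, and 10 had an unadjusted p under 0.05 (16.3% of all tested genes did). Mvk, mevalonate kinase, had 0.68 ± 0.16 (adjusted p = 0.0829), Hsd17b7, a sterol reductase, 0.53 ± 0.15 (0.120) and Dhcr7, which acts at the last step, 0.33 ± 0.08 (0.101). Lbr, a sterol reductase that is also a nuclear envelope protein, was the negative one at -0.05. Of the same 15, 7 were above DSS in every WT library (median 0.29) and 6 in every COM library (median 0.27), beside 4.48% and 6.67% of all tested genes.

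In KO against Control, 3.69% of all tested genes were called higher. Hsd17b7 rose there (0.60, adjusted p = 0.0307), from 4.48 to 7.58 FPKM in Control to 8.37 to 10.2 in KO. The call was lost without Control 2, Control 3 or any 1 of the KO libraries (0.47 to 0.79 with 1 library left out). It was also lost under quantile normalization, with a replicate block, with only the groups compared and without each of the 3 sets of libraries with markers of other tissue.

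The regulators around SREBP-2 had small differences. Of 5 (Srebf1, Scap, Insig2, Mbtps1, Mbtps2), 0 were called by limma in KO against DSS, beside 0.166% of all tested genes. An unadjusted p under 0.05 was seen for 2 of them, beside 16.3% of all tested genes. Values ran from -0.17 for Scap, the escort protein, to 0.11 for Insig2, the second INSIG protein. Called higher than in Control were 11.6% of all tested genes in DSS and 14.7% in WT. Mbtps1, the Golgi protease that makes the first cut, rose against Control in DSS (0.35, adjusted p = 0.00483) and WT (0.34, adjusted p = 0.00251). Its call in DSS was lost with only the groups compared and without the libraries with squamous markers. Scap rose in the same 2 groups (0.28, adjusted p = 0.0253, and 0.26, adjusted p = 0.0205). Its calls were lost without Control 3, DSS 2 or DSS 3 in DSS (0.19 to 0.33 with 1 library left out) and without Control 3, WT 1 or WT 3 in WT (0.17 to 0.31). Both were also lost with only the groups compared, without the libraries with squamous markers and without the pair with low Hox genes. The Scap call in DSS was further lost with a replicate block and without the libraries with acinar markers.

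Of 8 genes of sterol uptake and transport, 7 were tested and 0 called by limma in KO against DSS (median 0.15), beside 0.166% of all tested genes. An unadjusted p under 0.05 was seen for 1, beside 16.3% of all tested genes. Npc1l1, the intestinal sterol importer, was at 0 to 0.37 FPKM and was not tested. Stard4, a cytosolic sterol carrier, had 0.15 ± 0.07 in KO against DSS (adjusted p = 0.321). Against Control it rose in WT (0.32, adjusted p = 0.00665), KO (0.29, adjusted p = 0.0323) and COM (0.32, adjusted p = 0.0181). Of all tested genes 14.7%, 3.69% and 5.26% were called higher there. The Stard4 call was lost without Control 3 in COM and without Control 2, Control 3, KO 1, KO 2 or KO 4 in KO (0.25 to 0.33 with 1 library left out). With only the groups compared, the calls in WT, KO and COM were lost. Without the libraries with squamous markers, those in WT and COM were. The call in KO was also lost with a replicate block and without the libraries with acinar markers or the pair with low Hox genes.

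Genes of the liver X receptors and of sterol efflux, which sterol excess switches on, were compared in the same way. All 8 had a negative log2 fold change in KO against DSS (median -0.46), 4 were below DSS in every KO library, and limma called none. The list mean was 2.97 in KO 2, beside 3.56 to 3.79 in the other KO libraries and 3.82 to 4.18 in DSS. KO 2 is in the pair with low Hox genes, and its part in these values was not tested. The 4 below DSS were also those with an unadjusted p under 0.05: Mylip, a ubiquitin ligase that liver X receptors induce (-0.48 ± 0.14, adjusted p = 0.140), Abca1, a cholesterol exporter (-0.44 ± 0.14, adjusted p = 0.157), Apoe, a lipoprotein component (-0.65 ± 0.26, adjusted p = 0.239) and Nr1h3, which encodes LXR-alpha (-0.37 ± 0.16, adjusted p = 0.253). In this comparison 11.6% of all tested genes were below in every library, 16.3% had an unadjusted p under 0.05 and 0.166% were called. Apoe and Abca1 are abundant in macrophages, whose markers differed as given above, and that part was not tested. Against Control, Abca1 rose in DSS (0.88), WT (0.74) and COM (0.65), and Apoe in DSS (1.27), WT (1.18) and COM (0.97), where 7 of 7, 7 of 7 and 6 of 7 macrophage markers were called higher, beside 11.6%, 14.7% and 5.26% of all tested genes. Mylip rose in DSS (0.49) and WT (0.52). The Apoe call in COM was lost without Control 3, COM 2, COM 3 or COM 4 (0.59 to 1.18 with 1 library left out), and the Mylip calls without Control 3, DSS 1 or DSS 2 in DSS (0.37 to 0.59) and without Control 3 or WT 1 in WT (0.40 to 0.61). With only the groups compared, Abca1 in DSS and COM, Apoe in DSS, WT and COM and Mylip in DSS lost their calls. Without the libraries with squamous markers, Abca1 in COM, Apoe in DSS, WT and COM and Mylip in DSS and WT did. Apoe and Mylip in DSS did so without the libraries with acinar markers. Apoe in COM and Mylip in DSS did so with a replicate block and without the pair with low Hox genes.

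**Figure D3:**
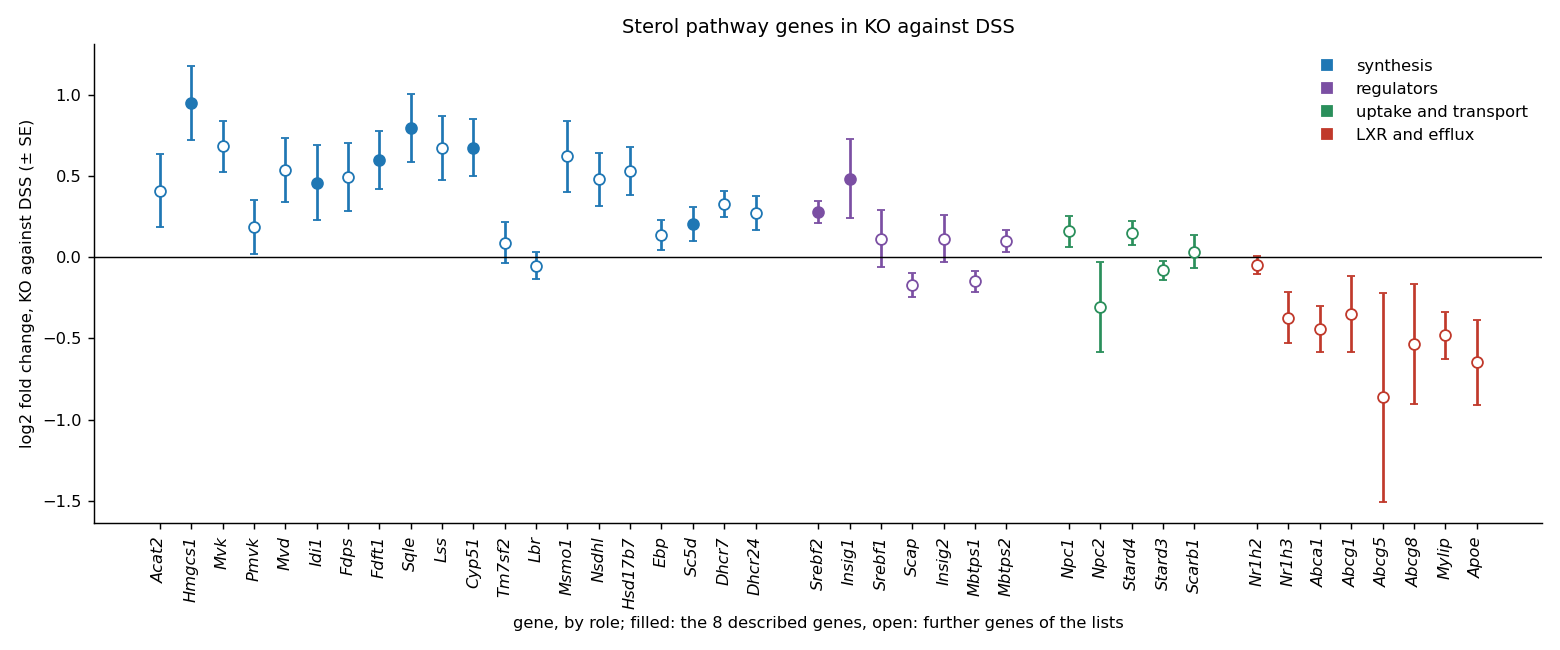
Log2 fold change of FPKM + 1 in KO against DSS (limma, ± SE) for genes of synthesis, regulation, uptake and transport, and LXR and efflux. Filled points are the 8 genes described and open points other genes of the lists, of which some are not drawn. Synthesis genes lie above 0 except Lbr, and the 8 genes of LXR and efflux lie below it.

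The 8 genes varied together across libraries. Over the 28 pairs the median Pearson correlation of log2(FPKM + 1) was 0.75 over 18 libraries, 0.78 for deviations from group means and 0.72 without the Control libraries. They are descriptions over libraries that differed in tissue markers, as given above, and for which no batch is given. Hmgcs1 and Sqle had the highest value, 0.98, and Sc5d and Insig1 the lowest, 0.20. Insig1 had a median of 0.57 with its 7 partners, against 0.90 for Sqle. For Sc5d and Insig1 the value was 0.56 in deviations from group means and -0.10 without the Control libraries, so that it depended on which libraries entered.

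**Figure D4:**
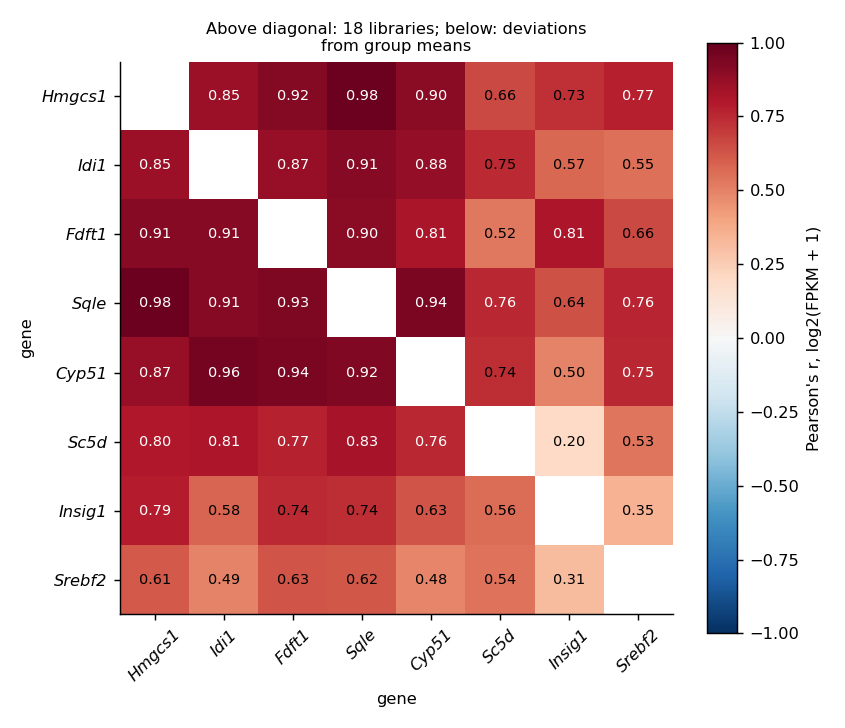
Pearson's r of log2(FPKM + 1) between the 8 genes, over 18 libraries above the diagonal and for deviations from group means below it. The enzymes Hmgcs1, Idi1, Fdft1, Sqle and Cyp51 have values of at least 0.81 with each other above the diagonal, and the row and column of Insig1 hold lower ones.

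The genes most alike to the set were sought among 9088 tested genes with a mean of at least 5 FPKM, by the correlation over 18 libraries with the mean z-score of the 8. Of the closest 10, 6 belong to the list of other synthesis enzymes, Msmo1 (0.97), Hsd17b7 (0.91), Mvd (0.90), Fdps (0.87), Dhcr7 (0.87) and Nsdhl (0.87). Outside that list were Aacs (0.92), which activates acetoacetate for lipid synthesis, and Hmgn2 (0.89) and H3f3b (0.87), which encode chromatin proteins. With the same mean, Srebf1 had 0.63, Scap 0.05 and Insig2 -0.25. The 8 proliferation markers, genes of DNA replication and cell division, had 0.44 (Pcna) to 0.83 (Birc5) over the same libraries, and 0.74 (Mki67) to 0.96 (Mcm5) for deviations from the group means. These values are a description, and the part of proliferation in the likeness was not tested.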

How the data were processed

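Whole colon was rinsed and snap-frozen, and its total RNA was sequenced on the DNBSEQ platform, per the labels' protocols. What the authors deposited is a single FPKM table with 18349 genes and 18 libraries. The build is mm10, per the submitters' processing notes, and for the aligner, the annotation and the program behind the FPKM values the sources used here give no name. FPKM carries no read depth, so tests for counts were not used and the precision of single values is unknown.

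Gene identifiers were matched to the RefSeq table of GRCm38.p6 (18230 matched, 119 not), which gave coordinates. Groups came from the sample titles. Values were transformed to log2(FPKM + 1), which understates the change of low genes, and the 13263 genes reaching 1 FPKM in 3 or more libraries were tested two-sided in limma 3.58.1 (R 4.3.3), with 5 groups, moderated variances and a mean-variance trend, after the script was tested on simulated data. Calls used an adjusted p under 0.05. Values above 1 FPKM were identical between 2 libraries for at most 0.545% of genes, so none was taken for a copy.

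The 8 genes were found by identifier. From each other list up to 4 genes were named in a comparison, called ones first and then by smallest p, and the most alike genes were the 10 with the highest correlation. Some genes that this rule takes are not reported here. The genes, lists and marker lists were chosen with earlier results of these data known. Alternatives were a pseudocount of 0.1, no filter or one at 5 FPKM, quantile normalization, rescaling to TPM, a replicate block, no variance trend, only the groups compared, each library left out, and, chosen after seeing the data, 3 sets of libraries with markers of other tissue left out and a fit without the Control group.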

Additional observations from a re-analysis of the deposited data

Results flagged for a closer look

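In groups of 4 libraries, a value was singled out when its gap to the nearest library, divided by the range of the group, was above 0.829, Dixon's critical value. Of 24 groups looked at (8 genes in WT, KO and COM), 4 held such a value, where chance gives about 1 in 20. Hmgcs1 in WT 2 was at 134.55 FPKM, beside 103 to 108 in the other WT libraries. Idi1 in WT 2 was at 85.34 FPKM, beside 54.7 to 57.0. Sqle in KO 2 was at 65.25 FPKM, beside 54.4 to 55.9. Cyp51 in KO 2 was at 60.25 FPKM, beside 44.8 to 46.7. All 4 were the highest of their group, and they came from 2 libraries. WT 2 is among the libraries with squamous markers, and KO 2 has the second lowest mean of distal Hox genes. The part of these in the 4 values was not tested.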

How the results depend on the processing

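Of 1456 values of the 8 genes under an alternative, over 80 pairs of gene and comparison, 1334 kept their direction and their side of the threshold, 28 passed it newly, 36 no longer passed it and 58, in 20 such pairs, changed sign without having been called. No called value changed sign. Over the libraries left out one at a time, the number of the 8 genes called ranged from 0 to 1 for DSS against Control, 0 to 5 for WT against Control, 0 to 7 for KO against Control and 0 to 5 for COM against Control, from 0, 2, 2 and 0 with all libraries. WT against Control had 1 call with no filter on low values, and 0 with only the groups compared, without the libraries with squamous markers or without the pair with low Hox genes (Control 3 and KO 2). KO against Control had 1 call with no filter, under quantile normalization and with no variance trend, and 0 with only the groups compared and under each of the 3 sets left out. Rescaled to TPM, it kept the calls of Fdft1 and Insig1 and added Hmgcs1. DSS against Control had 1 call without the pair with low Hox genes. KO against DSS had 2 calls with only the groups compared and 5 without the Control group, COM against DSS 1 without the Control group, and KO against WT 2 and 1. No alternative gave a call among the 8 in WT against DSS, COM against KO or COM against WT. With a replicate block, KO against Control had 1 call in place of 2, and no other count of calls changed. Replicate numbers did not pair the libraries: over 33 pairs with the same number the median correlation of deviations was 0.013, 13 were over 0.1, and 3 libraries correlated best with a library of their own number. The cause of these changes was not tested. With 3 libraries in Control and DSS, and no read depth, small differences are not resolved.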

Other observations

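Neighbouring lipid pathways were counted in KO against DSS, where 7.68% of all tested genes were above and 11.6% below in every library. Of 8 genes of fatty acid synthesis, 1 was above DSS in every KO library (Scd2, a stearoyl-CoA desaturase, 0.32 ± 0.26), and the median log2 fold change was 0.06. Of 6 genes of the nonsterol isoprenoid branch, which uses the same precursors for prenylation, dolichol and ubiquinone, none was above or below in every library, with a median of -0.04. Of 6 genes of oxysterol and bile acid synthesis, 5 were tested. All had a negative value, from -0.005 for Hsd3b7 to -0.50 for Cyp27a1, a sterol hydroxylase. The mean of that list was 1.84 in KO 2, beside 2.25 to 2.33 in the other KO libraries and 2.28 to 2.48 in DSS. The part of KO 2 in these values was not tested. limma called none of the genes of these lists in KO against DSS, and none had an unadjusted p under 0.05. Of all tested genes 0.166% were called and 16.3% had such a p. Against Control, 14.7% of all tested genes were called higher in WT and 5.26% in COM. Cyp7b1, an oxysterol hydroxylase, rose in WT (0.65, adjusted p = 0.0247) and COM (0.79, adjusted p = 0.0229). Its means were low, at 0.40 FPKM in Control, 1.2 in WT and 1.5 in COM. The calls were lost without Control 3, WT 1 or WT 2 in WT (0.54 to 0.76 with 1 library left out) and without Control 2, Control 3, COM 2 or COM 3 in COM (0.63 to 0.92). Both were also lost under quantile normalization and with only the groups compared. The same held without the libraries with squamous markers or without the pair with low Hox genes.

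The ratio of Insig1 to Hmgcs1 FPKM, chosen after the values were seen, was 0.52 to 0.56 in DSS, 0.44 to 0.50 in WT, 0.35 to 0.47 in KO, 0.28 to 0.35 in COM and 0.29 to 0.54 in Control. COM lay below KO and WT, and KO and WT overlapped. It is given as a description, with no test.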
